A study of Mus musculus with 31 samples.

Results

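The adult globin genes Hba-a1, Hba-a2, Hbb-bs and Hbb-bt and the erythroid heme synthesis gene Alas2 were described as a measure of blood RNA in sorted mouse brain astrocytes. The 5 genes were taken by symbol from the annotation of each deposited transcript, out of 55401 genes in the files, and their transcripts' estimated counts were summed per gene. All 5 passed the filter on low counts, as did 14490 genes in all. The 12 RNA-seq libraries came from C57Bl/6 mice labelled female and 10 weeks old, in 4 labelled groups of 3. Mice received IL-1β at 100 ng/mL with TNF-α at 50 ng/mL, called cytokine here, or phosphate-buffered saline (PBS) into the lateral ventricles. The 1X groups were injected on day 7 only, the 2X groups had been injected before and were injected again on day 7, and cells were sorted 18 to 24 hours later. All groups carry SPF in their titles, and the short description label names TNF-α alone. Sort markers and whether blood was flushed from the vessels were not given in the sources used here, and the labels do not say whether a library is 1 animal. P-values thus reflect how far libraries of a group spread, and that spread may be technical.

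Hemoglobin is a tetramer of alpha and beta globin chains, each holding a heme group, and its messenger RNA dominates red cell precursors and stays in reticulocytes, the youngest circulating red cells. ALAS2 is the erythroid form of the first and rate-limiting enzyme of heme synthesis, and ALAS1 is the form of other tissues. The mouse genome carries a pair of adult alpha genes and a pair of adult beta genes, with embryonic copies nearby. In brain tissue these transcripts are commonly read as blood left in the vessels, although low globin expression by neural cells has been described. In bulk RNA, fewer cells of a type and less RNA per cell cannot be told apart.

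On GRCm38, GENCODE places Hba-a1 at chr11:32283511-32284465 and Hba-a2 at chr11:32296489-32297298, both on the plus strand. Hbb-bs lies at chr7:103826534-103828096 and Hbb-bt at chr7:103812524-103813996, both on the minus strand. Each globin gene's main transcript has 3 exons, and 12023 bases separate the alpha genes and 12537 the beta genes. Alas2 spans chrX:150547375-150570638 on the plus strand, and its main transcript has 11 exons.

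The copies of a pair are nearly the same in the protein-coding sequence, which bears on how reads were divided between them. Hba-a1 and Hba-a2 differ at 1 of 429 coding bases, and Hbb-bs and Hbb-bt at 1 of 444. The 30 coding bases that end at the differing base are shown for each gene 5′ to 3′, with that base in capitals (coding bases 352 to 381 of the alpha genes and 388 to 417 of the beta genes, from the GENCODE transcripts).
Hba-a1: ttcacccccgcggtgcatgcctctctggaC
Hba-a2: ttcacccccgcggtgcatgcctctctggaT
Hbb-bs: gccttccagaaggtggtggctggagtggcC
Hbb-bt: gccttccagaaggtggtggctggagtggcT
Of all stretches of 31 bases in the main transcript, 28.7% in Hba-a1, 8.97% in Hba-a2, 33.1% in Hbb-bs and 40.6% in Hbb-bt occur in no transcript of the other 4 genes. All such stretches of Alas2 are its own. The division of reads inside a pair was therefore a model estimate, and the sum of each pair is given beside its members.

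The promoters are shown as background, and no relation of their motifs with the levels in these libraries was tested. RefSeq's promoter table (GRCm38.p6), which holds 250 bases before and 50 after each start, has all 5 genes. GATAA, the letters of the GATA factor motif, was searched on both strands. It occurs in all 5 windows and in 25.4% of the 32851 windows of the table. CCAAT was found in the 4 globin windows and not in that of Alas2, against 37.4% of all windows. CCACACCC, a CACCC-box run of the kind KLF1 is known to bind, was found in Hbb-bs alone among the 5, against 3.56% of all windows. ATAAA was found in Hbb-bt and Alas2, against 40.01% of all windows. The GATAA matches start 182 (Hba-a1), 185 (Hba-a2), 209 (Hbb-bs), 204 (Hbb-bt) and 86 (Alas2) bases before the RefSeq start. A match is a run of letters and not a measured binding site. The 30 bases around the GATAA match nearest the start follow, 5′ to 3′ on the gene's strand, with every match of these motifs in capitals. In Alas2 the match is on the opposite strand (TTATC) and overlaps an ATAAA match on that strand.
Hba-a1 and Hba-a2 (chr11:32283478-32283507 and chr11:32296295-32296324): gtccgggcaactGATAAggattccctgcac
Hbb-bs (chr7:103828120-103828149): gttctctgcacaGATAAggacaaacattat
Hbb-bt (chr7:103814110-103814139): attagctgcaagGATAAgaacagacactac
Alas2 (chrX:150547319-150547348): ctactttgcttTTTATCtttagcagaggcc
The alpha genes' windows were identical over all 297 bases they share once aligned. The stretches around CCAAT, closer to the RefSeq start, follow. GENCODE starts the genes 161 (Hba-a1), 3 (Hba-a2), 168 (Hbb-bs), 73 (Hbb-bt) and 42 (Alas2) bases before RefSeq does, so all 30 bases of the Hba-a1 and Hbb-bs stretches and 7 of that of Hbb-bt lie inside the gene spans given above.
Hba-a1 and Hba-a2 (chr11:32283563-32283592 and chr11:32296380-32296409): ggtagagcaagcacaaaccagCCAATgaga
Hbb-bs (chr7:103827996-103828025): agagCCACACCCtggtaagggCCAATctgc
Hbb-bt (chr7:103813990-103814019): agggtaacaccctggcATTGGCCAATctgc
Hbb-bt also has CCAAT on the opposite strand, abutting the first, and once more on that strand closer to the start. Its window holds no CCACACCC.

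Library totals ran from 1878418 to 5521679 estimated counts, so that 3 counts correspond to 0.543 to 1.60 CPM (counts after scaling every library to the same size). Defining astrocyte genes were present in every library: Slc1a3, the glutamate transporter GLAST, ran from 1690 to 8224 CPM. Libraries did not divide by label alone. Lcn2, an acute-phase gene that inflammatory cytokines are known to raise in astrocytes, stood at 5.33, 1076 and 776 CPM (1X PBS), 797, 11.5 and 3.85 (1X cytokine), 570, 363 and 425 (2X PBS) and 15.0, 2.26 and 1.20 (2X cytokine), in the order of the replicates. It was thus high in 5 of 6 libraries labelled PBS and in 1 of 6 labelled cytokine. Replicate 1 of each 1X group stood apart from the other replicates of its group. Only in those 2 libraries did Lcn2 lie on the side that its known rise with cytokines would give. Gfap, the intermediate filament of reactive astrocytes, split the same way. The 1X libraries had 189, 701 and 585 CPM for PBS and 725, 233 and 153 for cytokine. The 2X libraries had 1141, 1043 and 1095 CPM for PBS and 150, 119 and 113 for cytokine. Group names are the labels', and every direction rests on them. Results that depend on replicate 1 of the 1X groups are given with and without those 2 libraries.

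The 5 genes spread over about 2 orders of magnitude between libraries. CPM values use totals scaled by TMM, a normalization that sets the bulk of genes equal. Hbb-bs, the major adult beta chain gene, measured 2070, 5772 and 24417 CPM across the 1X PBS replicates, 1 to 3, whereas the 1X cytokine replicates measured 2681, 330 and 901. The 2X PBS replicates measured 1257, 745 and 182 CPM and the 2X cytokine replicates 4426, 1707 and 899. The 1X PBS libraries held the 2 highest values and the 2X PBS libraries the lowest one. Within each group of 3, the highest library stood 4.92 to 11.8-fold above the lowest. As group means this was 10753 ± 11977 CPM (SD, n = 3) for 1X PBS, 1304 ± 1226 for 1X cytokine, 728 ± 538 for 2X PBS and 2344 ± 1848 for 2X cytokine, with an SD near or above the mean in the 1X groups.

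Hba-a2, the alpha gene assigned most of the alpha counts, followed the same order. The 1X PBS replicates held 2481, 6611 and 27010 CPM, the 1X cytokine replicates 3087, 396 and 1076, the 2X PBS replicates 1483, 845 and 196 and the 2X cytokine replicates 5384, 2040 and 1028. Its rank over the 12 libraries was that of Hbb-bs in every library (Spearman's rho 1). In 1X PBS replicate 3 it was the gene with the second highest CPM of all 14490, and in 2X PBS replicate 3 it ranked 790.

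Hba-a1, the other alpha gene, ran lower. The 1X PBS replicates held 825, 1946 and 7595 CPM, the 1X cytokine replicates 998, 102 and 349, the 2X PBS replicates 435, 272 and 74.6 and the 2X cytokine replicates 1788, 629.6 and 354. Hbb-bt, the other adult beta gene, stood at 514, 1152 and 4844 CPM (1X PBS), 613, 74.9 and 208 (1X cytokine), 277, 199 and 28.1 (2X PBS) and 1192, 435 and 175 (2X cytokine). Both were highest in 1X PBS replicate 3 and lowest in 2X PBS replicate 3.

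Alas2 was the lowest of the 5 and moved with the globins. The 1X PBS replicates held 109.5, 215 and 900.1 CPM, the 1X cytokine replicates 129, 20.7 and 50.0, the 2X PBS replicates 61.4, 30.1 and 8.29 and the 2X cytokine replicates 222, 85.5 and 37.2. The lowest of these values rested on 28 estimated counts. Its highest and lowest libraries were those of the globins, 109-fold apart.

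**Figure D1:**
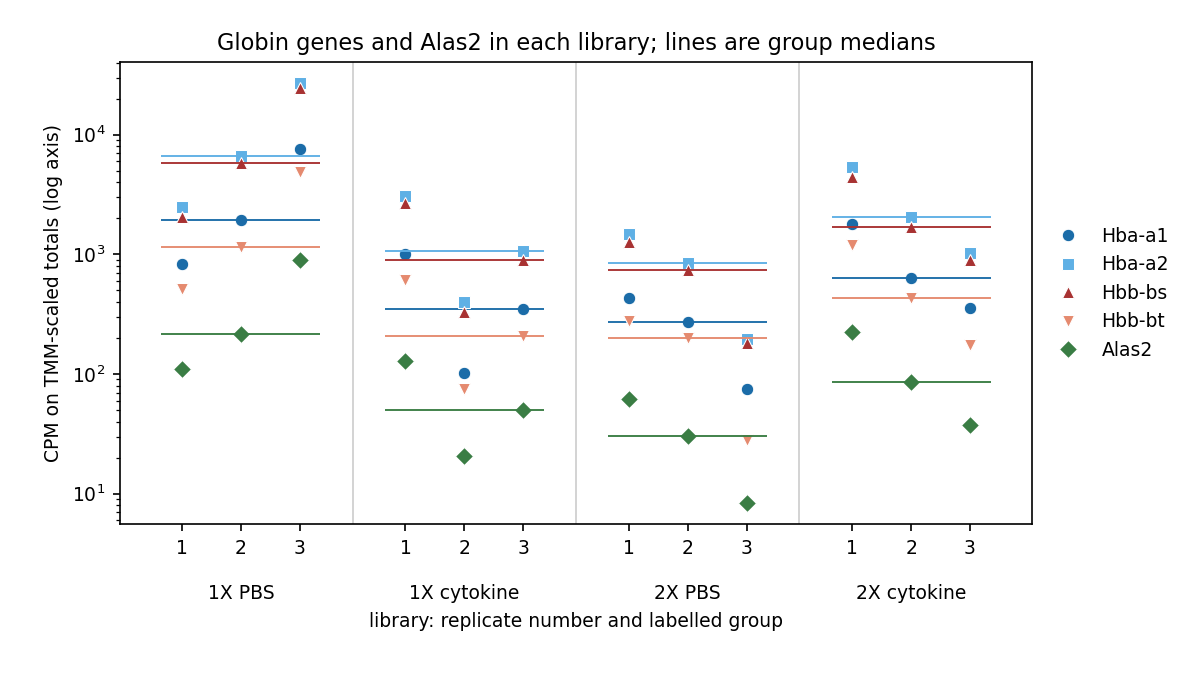
CPM on TMM-scaled totals (log axis) of the 5 genes in each of the 12 libraries, with the replicate number and labelled group on the horizontal axis; lines mark group medians. All 5 genes are highest in 1X PBS replicate 3 and lowest in 2X PBS replicate 3, and the 5 symbols keep nearly the same distance from each other in every library.

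Together the 4 globin genes took 5.91% of all estimated counts in 1X PBS replicate 3 (275362 counts, 95% Wilson interval 5.89% to 5.93%). In 2X PBS replicate 3 they took 0.0479% (1624 counts, interval 0.0456% to 0.0502%). Their summed CPM differed 133-fold between these libraries, and 103-fold in deposited TPM, transcript abundance scaled by length. The other 10 libraries held shares from 0.0893% to 1.54%. These intervals cover counting error only, since PCR copies were not marked by molecular identifiers. By group median the order of summed globin CPM was 1X PBS (15481), 2X cytokine (4811), 1X cytokine (2535) and 2X PBS (2061). Neighbouring groups in that order overlapped, and 44.7% to 48.0% of the variance of each gene's log2 level lay between libraries of the same group, against a median of 70.0% over all genes.

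Levels of different genes were compared per length, in TPM. Hba-a2 had the highest TPM of the 5 in every library, from 801 in 2X PBS replicate 3 to 84854 in 1X PBS replicate 3. Hbb-bs ran from 615 to 63946 TPM, Hba-a1 from 216 to 17240, Hbb-bt from 81.2 to 10785 and Alas2 from 6.77 to 552 TPM in the same libraries. The order inside each globin pair rests on the estimated division of reads between near-identical copies and on their annotated lengths. The alpha pair held 1.36 to 1.48 times the summed TPM of the beta pair, a narrow range beside the change in level. In estimated counts the ratio was 1.18 to 1.29.

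The division inside the pairs varied more. Hba-a1 took 20.5% (95% Wilson interval 18.4% to 22.8%) of the alpha counts in 1X cytokine replicate 2 and 27.5% (24.7% to 30.5%) in 2X PBS replicate 3. Hbb-bt took 13.4% (11.1% to 16.1%) of the beta counts in 2X PBS replicate 3 and 21.2% (20.6% to 21.9%) in 2X cytokine replicate 1. The extremes lay beyond each other's intervals, which do not cover the error of dividing reads between near-identical copies. The extremes of Hba-a1 came from the 2 libraries with the smallest globin shares. Alas2 had a median of 17.5 counts per 1000 globin counts, from 13.9 (12.96 to 14.9) in 1X PBS replicate 2 to 23.0 (17.5 to 30.04) in 1X cytokine replicate 2. It was lowest in the 2 libraries richest in globin, replicates 2 and 3 of 1X PBS, at 13.9 and 14.1.

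**Figure D2:**
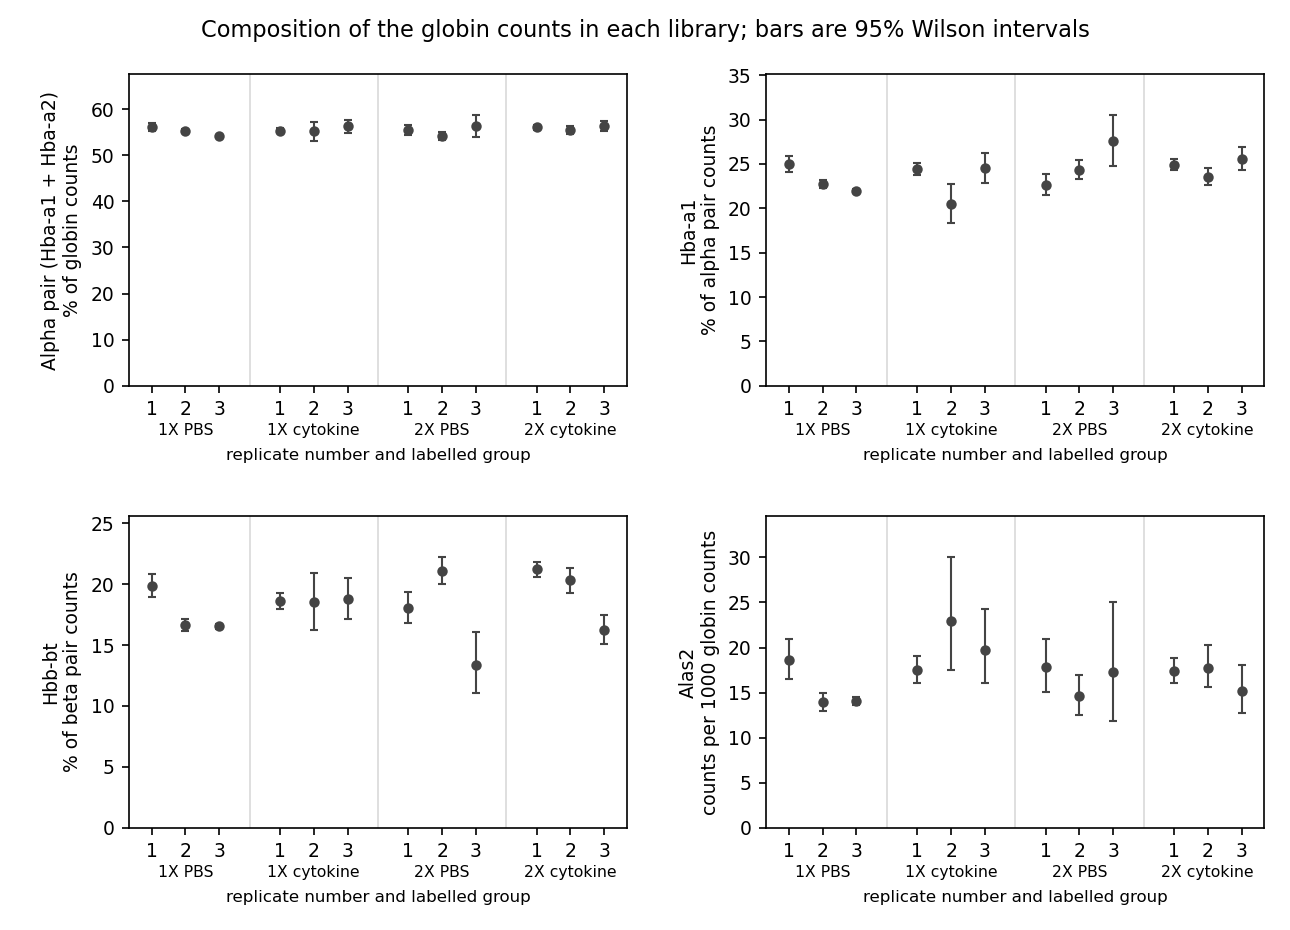
Composition of the globin counts in each library, with 95% Wilson intervals as bars and axes that start at 0: the alpha pair's share, Hba-a1 within the alpha pair, Hbb-bt within the beta pair, and Alas2 per 1000 globin counts. The alpha share is nearly level, while Hbb-bt ranges from 13.4% to 21.2% of its pair and Alas2 from 13.9 to 23.0 per 1000.

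At the transcript level, the main protein-coding transcript carried at least 99.6% of the counts of Hba-a2, Hbb-bs and Hbb-bt in every library. For Hba-a1, a transcript that retains an intron was assigned up to 16.1% of the gene's counts, with a median of 1.45%. The 2 protein-coding Alas2 transcripts shared the counts unevenly, and the longer one took 0% to 99.1%, with a median of 57.8%. That division was not used further.

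Across the 12 libraries, log2(CPM + 0.5) of Hbb-bs was related to that of Hba-a2 (Pearson's r and Spearman's rho both 1), Hba-a1 (r = 0.997, rho = 0.993), Hbb-bt (r = 0.994, rho = 0.986) and Alas2 (r = 0.994, rho = 0.993). Each had a two-sided permutation p of 1e-05, the smallest that 100000 permutations can give, and an adjusted p of 3.75e-05 over the 15 relations computed. Without the 2 libraries farthest from the median, r stayed between 0.985 and 1. Pair members share reads, but Alas2 shares none with the globins. Hbb-bs was not related to the library total past the threshold (r = 0.288, permutation p = 0.364, adjusted 0.496, and rho = 0.224, permutation p = 0.483, adjusted 0.604).

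The design sets cytokine against PBS after 1 or 2 injections, and 2 injections against 1. In none of the 5 tests, the difference between the 2 cytokine responses included, did any of the 5 genes pass an adjusted p of 0.05 by edgeR's quasi-likelihood test over all genes. In 1X cytokine the genes were lower than in 1X PBS by fit, with log2 fold changes from -3.04 (standard error 1.06, Hbb-bs) to -2.59 (0.96, Alas2), unadjusted p from 0.0142 to 0.0221 and an adjusted p of 0.866 for all 5. The 1X cytokine value of replicate 1, 2681 CPM for Hbb-bs, exceeded that of 1X PBS replicate 1, so the groups overlapped. Of all genes, 0% were called in this comparison by edgeR, with 783 at an unadjusted p under 0.05 and 2 called by DESeq2. Groups did not overlap for 6.18% of genes and for none of the 5.

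With 1X PBS replicate 1 and 1X cytokine replicate 1 left out, all 5 passed in this comparison, with log2 fold changes from -4.60 (Hbb-bs) to -4.02 (Alas2) and adjusted p from 0.00322 to 0.00702 by edgeR. In that fit 23.5% of all genes were called. The libraries left out were the lowest of 1X PBS and the highest of 1X cytokine for all 5 genes. Leaving them out thus necessarily widened the difference. Without 1X PBS replicate 1 alone, Hbb-bs passed (log2 fold change -3.50, adjusted p = 0.0485) and the other 4 did not, while 7.55% of all genes did. With no filter on low counts all 5 passed, against 0.748% of 33574 genes. That fit used the same counts of the 5 genes and differed only in the other genes admitted.

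Between the PBS groups the 5 genes were lower in 2X PBS than in 1X PBS by fit, with log2 fold changes from -3.89 (standard error 1.10, Hbb-bs) to -3.65 (1.01, Alas2). Every 2X PBS library lay below every 1X PBS library for all 5 genes: for Hbb-bs, 182 to 1257 CPM against 2070 to 24417. Over all genes, 11.4% did not overlap between these groups in either direction and 6.05% did so with 2X PBS lower. The edgeR test called 0% of genes, with 914 at an unadjusted p under 0.05, and DESeq2 called 17. The 5 genes had unadjusted p from 0.00373 (Alas2) to 0.00679 (Hbb-bt) and adjusted p from 0.630 to 0.660 by edgeR, and 0.102 to 0.166 by DESeq2.

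The same comparison passed for all 5 genes under 3 other settings. Those without 1X PBS replicate 1 lacked the lowest 1X PBS library for all 5 genes, which necessarily widened the difference. Without 1X PBS replicate 1, log2 fold changes ran from -4.36 (Hbb-bs) to -4.10 (Alas2), with adjusted p from 0.0259 to 0.0381 by edgeR, and 7.39% of all genes were called. With 1X cytokine replicate 1 left out as well, 18.6% of all genes were called and the 5 had adjusted p from 0.00145 to 0.00388. With no filter on low counts, 0.289% of genes were called and the 5 had adjusted p from 8.21e-06 to 1.86e-05 by edgeR. The counts of the 5 genes were the same as in the filtered fit. The lower p came with the low-count genes admitted and is no added evidence about the 5.

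In 2X cytokine the fitted log2 fold changes against 2X PBS ran from 1.69 (standard error 1.00, Hbb-bs) to 1.84 (1.05, Hbb-bt), with adjusted p from 0.605 to 0.654. The groups overlapped for all 5 genes: Hbb-bs had 899 to 4426 CPM in 2X cytokine and 182 to 1257 in 2X PBS. The test called 0.0345% of all genes, and 25.3% of genes did not overlap. With no filter on low counts Hba-a1, Hbb-bt and Alas2 passed, with adjusted p from 0.0200 to 0.0379, against 1.37% of all genes.

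Between 2X cytokine and 1X cytokine the log2 fold changes were 0.76 (standard error 0.92, Alas2) to 1.00 (1.02, Hbb-bt), with adjusted p from 0.867 to 0.890 by edgeR. The groups overlapped for all 5, while 0.0276% of all genes were called and 12.5% did not overlap. For Alas2 the sign rested on 2X cytokine replicate 1: without that library its log2 fold change was -0.13.

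The cytokine response after 2 injections minus that after 1 was 4.41 (standard error 1.35, Alas2) to 4.73 (1.45, Hbb-bs) on the log2 scale. Unadjusted p ran from 0.00656 to 0.00910 and adjusted p from 0.826 to 0.879 by edgeR, which called 0% of all genes. There were 754 genes at an unadjusted p under 0.05, and DESeq2 called 13. With 1X PBS replicate 1 and 1X cytokine replicate 1 left out, the difference was 5.89 (Alas2) to 6.31 (Hbb-bs). Leaving out these libraries, the lowest of 1X PBS and the highest of 1X cytokine, necessarily widened it. All 5 passed then, with adjusted p from 0.00425 to 0.00763, and 9.33% of all genes were called. With no filter on low counts all 5 passed too, against 0.208% of all genes.

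**Figure D3:**
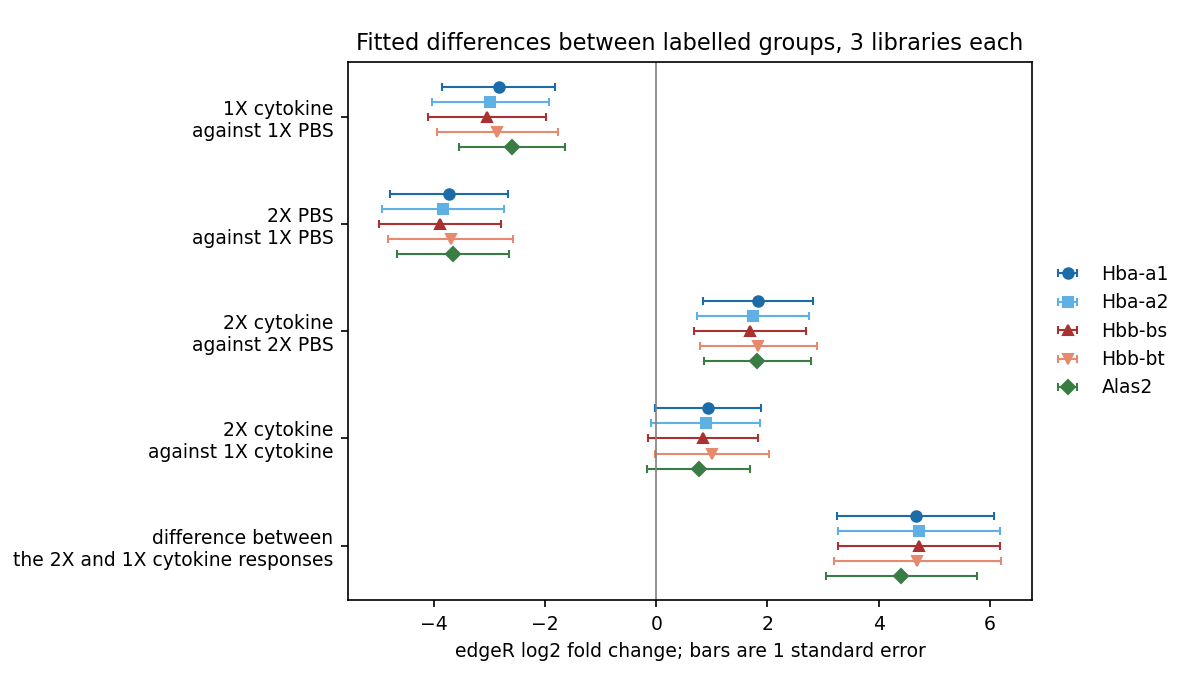
Fitted log2 fold changes of the 5 genes in the 5 tests, with 1 standard error as bars, from 3 libraries a group. The 5 genes share one direction in each test, from about -3.89 for Hbb-bs between the PBS groups to 4.73 for the difference between responses, and none passed the adjusted threshold.

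Fitted as sums, so that the division inside a pair did not matter, the pairs gave like values. For Hba-a1 with Hba-a2 the log2 fold change was -2.95 (standard error 1.05) in 1X cytokine against 1X PBS, with an adjusted p of 0.867 by edgeR.

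Other genes of red cells were mostly highest in 1 of 2 libraries. Of 28 other erythroid genes measured out of 33 in the list, 9 were highest in 1X PBS replicate 3, as the globins were, and 16 in 2X cytokine replicate 1. Of all 14490 genes, 12.9% were highest in the first of these libraries and 7.03% in the second. These sets were formed from the values and have no test. The list held 0 called genes of 28 in each of the 5 tests.

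Among the 9 highest in 1X PBS replicate 3, Slc25a37 (mitoferrin), which brings iron into the mitochondria of red cell precursors, had 190, 130 and 16.6 CPM in 1X PBS replicate 3, 2X cytokine replicate 1 and 2X PBS replicate 3. Tent5c, a poly(A) polymerase, had 207, 61.1 and 15.4 CPM, and Bpgm, which makes the red cell effector 2,3-bisphosphoglycerate, had 305, 134 and 77.0. Ube2l6, a conjugating enzyme of the interferon-induced ubiquitin-like protein ISG15, had 302, 86.0 and 33.8 CPM. Fech, Isg20, Bnip3l and Mkrn1 were also highest in 1X PBS replicate 3, Mkrn1 by little, with 54.0 CPM against 53.7 in 1X PBS replicate 2.

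Among the 16 highest in 2X cytokine replicate 1, Slc4a1, the band 3 anion exchanger, had 403 CPM in 2X cytokine replicate 1 and from 21.02 to 136 in the other 11 libraries, with 104 in 1X PBS replicate 3. Rhd, a blood group protein, had 52.8 CPM in 2X cytokine replicate 1 against 7.89 in 1X PBS replicate 3. Hemgn, a nuclear protein of erythroid precursors, had 66.0 against 11.1 CPM, and Klf1, the erythroid transcription factor that drives adult beta globin, 17.5 against 5.33. Trim10, Kel, Ermap, Rhag, Epb42, Sptb, Ank1, Nfe2, Tfrc and Tmcc2 were also highest in 2X cytokine replicate 1. Tfrc, the transferrin receptor, had 137 CPM there and 114 in 1X PBS replicate 1. Gata1, which did not pass the filter, reached 10.4 CPM, also in that library.

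Alas2 stayed within 13.9 to 23.0 counts per 1000 globin counts, and genes of both sets ranged more widely. Slc4a1 had 1.63 to 43.7 counts per 1000 globin counts, Bpgm 4.78 to 160.1, Fech 4.62 to 216, Ube2l6 4.72 to 70.2, Tent5c 3.25 to 32.02, Slc25a37 2.97 to 34.5 and Isg20 1.27 to 17.2. Each of these 7 had its lowest ratio in 1X PBS replicate 3 and its highest in 2X PBS replicate 3, the libraries with most and least globin. A gene at a steady level would show the same extremes, since the ratio divides by the globin counts. Not all genes had them, but the 2 exceptions named here rested on few counts in 2X PBS replicate 3, with its 1624 globin counts. Hemgn had its highest ratio in 2X PBS replicate 2, at 7.09 against 6.16 in 2X PBS replicate 3. Klf1 had its lowest ratio, 0, in 2X PBS replicate 3, beside a median of 1.02 over the libraries. Among the 12 genes of all tested whose level was most like the mean log2 level of the 5 members, by Pearson's r over 12 libraries, were Slc25a37 (r = 0.953), Tent5c (0.9198), Dcaf12 (0.907), Rsad2 (0.895), Ube2l6 (0.885), Kctd20 (0.880), Erc2 (0.879), Isg20 (0.877), Bpgm (0.875), Mpp1 (0.865) and H2ac18 (0.862). Slc4a1 ranked 145 by the same measure, with r = 0.713. At the low end of the erythroid list stood Rhd (0.476), Tmcc2 (0.444), Cd59a (0.324), Slc25a38 (-0.105), Tspan33 (-0.263) and Tfrc (-0.291). These are descriptions over libraries that share the same samples, with no test.

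**Figure D4:**
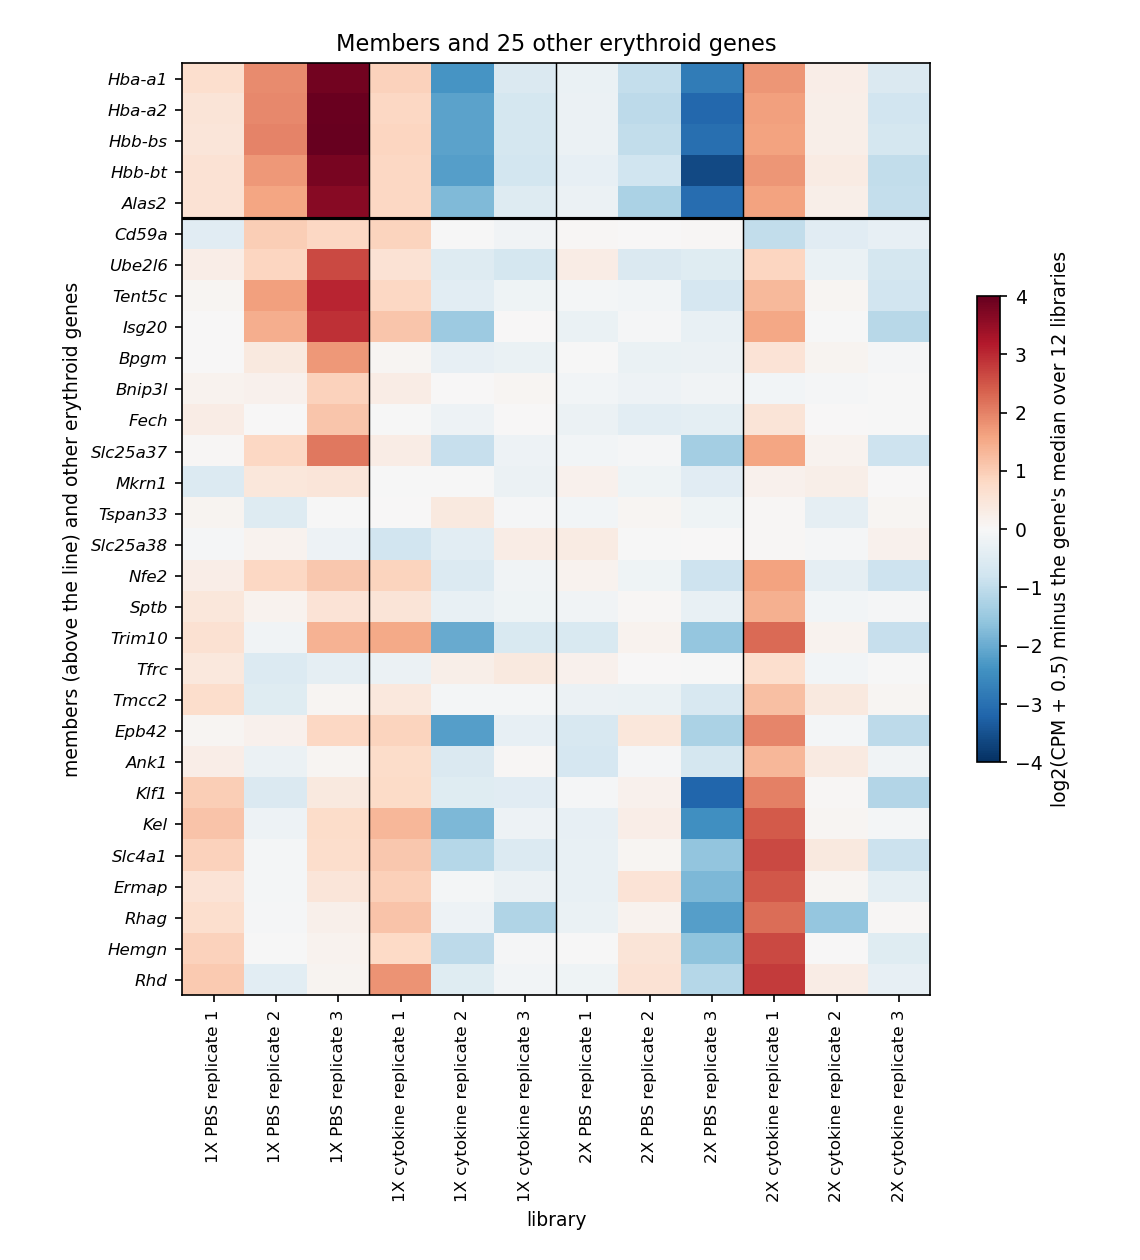
The 5 members (above the line) and 25 of the 28 other erythroid genes in the 12 libraries, coloured by log2(CPM + 0.5) minus the gene's median over libraries and ordered by the difference between 1X PBS replicate 3 and 2X cytokine replicate 1. Ube2l6, Tent5c and Isg20 peak with the members in 1X PBS replicate 3, while Slc4a1, Hemgn and Rhd peak in 2X cytokine replicate 1.

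Erythroid genes as a list leaned the way the members did without passing the test. In 2X PBS against 1X PBS, 25 of the 28 were lower, with a median log2 fold change of -0.85, and 8 had an unadjusted p under 0.05. The lowest adjusted p among them was 0.630 by edgeR. In 2X cytokine against 2X PBS, 25 of 28 were higher, with a median of 1.02. In 1X cytokine against 1X PBS, 22 of 28 were lower, with a median of -0.32. Medians over all genes lay between -0.03 and 0.00 in these comparisons, and 45.5% to 49.5% of all genes were higher. The lean was not particular to erythroid genes. In 2X PBS against 1X PBS, 12 of 12 oligodendrocyte genes (median -0.79) and 12 of 13 endothelial genes (-0.97) were lower, while 14 of 14 astrocyte genes were higher. In 2X cytokine against 2X PBS, 11 of 12 oligodendrocyte and 10 of 10 ependymal genes were higher, while 10 of 10 choroid plexus genes were lower. 

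Most heme synthesis genes varied little beside the members. None of the 12 measured was called in any test, with median log2 fold changes from -0.19 to 0.31 in the group comparisons. Alas1, the enzyme form of non-erythroid cells, had 55.6 to 83.0 CPM over the 12 libraries, beside the 109-fold range of Alas2. Fech, which inserts iron into protoporphyrin to make heme, ran from 101 to 295 CPM and was highest in 1X PBS replicate 3. Alad, Abcb10, Urod and Ppox were highest in 2X cytokine replicate 1, at 57.8, 71.4, 86.4 and 93.2 CPM. Tmem14c (45.1 to 71.0 CPM) was highest in 1X PBS replicate 3, as the members were. Cpox (5.92 to 16.4) and Uros (22.7 to 50.2) were highest in 1X PBS replicate 1 and Slc25a38 (12.8 to 27.5) in 2X PBS replicate 1.

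Genes of heme breakdown, export and scavenging had none called of 12. Hmox1, the inducible heme oxygenase, stood at 20.7, 20.7 and 17.7 CPM in the 2X cytokine replicates and at 45.3, 40.5 and 44.4 in those of 2X PBS. Its log2 fold change of -1.14 had an adjusted p of 0.0542 by edgeR, just short of the threshold. In 1X PBS replicate 3, the library with most globin, it was at 40.1 CPM. Lrp1, the receptor for heme bound to hemopexin, ran from 605 to 854 CPM, and Slc48a1, a heme transporter, from 260 to 376. Hp (haptoglobin), the plasma protein that binds free hemoglobin and that neutrophils also carry, had the widest spread among those named here. It stood at 6.85, 133 and 116 CPM (1X PBS), 50.6, 3.84 and 4.40 (1X cytokine), 28.8, 29.2 and 32.0 (2X PBS) and 13.2, 4.14 and 8.10 (2X cytokine). As with Lcn2, replicate 1 of each 1X group stood apart. Abcg2, a heme and drug exporter, was highest in 1X PBS replicate 3 at 67.7 CPM, and Blvrb, a biliverdin reductase abundant in red cells, in 2X cytokine replicate 1 at 63.2. Blvra, Hmox2, Flvcr1, Flvcr2, Cd163 and Hpx ranged from 0.384 CPM (Cd163, lowest library) to 107 CPM (Hmox2, highest library).

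Embryonic globins stayed near the floor in every library. Hbb-bh0, Hbb-bh1, Hbb-bh2 and Hbb-bh3 had 0 counts in all libraries, which allows at most 0.543 to 1.60 CPM at 3 counts. Hba-x reached 0.277 CPM and Hbb-y 0.352. Hbq1b, a theta globin, reached 5.71 CPM in 2X cytokine replicate 1. Mb (myoglobin) ran from 0.423 to 4.94 CPM. Cygb (cytoglobin), a globin of fibroblasts, stood at 4.28, 6.03 and 6.30 CPM in the 2X cytokine replicates and at 15.2, 14.6 and 16.6 in those of 2X PBS. Its log2 fold change of -1.47 had an adjusted p of 0.0542 by edgeR and did not pass.

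Markers of other blood and vessel cells were set beside the globins, and their part in the result was not tested. Platelet genes were near 0: Pf4, the platelet chemokine, reached 2.54 CPM, and Itga2b, the only gene of 12 past the filter, ran from 4.94 to 14.8. Lymphocyte genes were near 0 too: Cd3d, the only one of 12 past the filter, reached 5.92 CPM. Neutrophil genes were not: the summed level of the 9 measured of 14 was 30.05, 1174 and 1390 CPM (1X PBS), 552, 21.5 and 26.4 (1X cytokine), 394, 321 and 288 (2X PBS) and 166, 43.7 and 14.1 (2X cytokine). S100a8, S100a9 and Csf3r led this sum, with 391.97, 419.8 and 329 CPM in 1X PBS replicate 3. Ly6g, a defining neutrophil gene, was under the filter with at most 2.49 CPM. In 2X cytokine replicate 1 the sum was made up differently, since Ngp and Ltf, granule genes of maturing granulocytes, had their highest values there, 37.1 and 26.1 CPM. The monocyte and macrophage list (10 of 12 measured) had 1916 to 2077 summed CPM in replicates 2 and 3 of 1X PBS, led by Lyz2, and 104 to 658 in the other 10 libraries.

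Libraries high in Lcn2 were also high in these white cell genes, so relations with globin were read within each set of 6 libraries as well. The split was thus not independent of the neutrophil list, and r within a set is a description with no test. Hbb-bs was related to the neutrophil list at r = 0.613 over 12 libraries (permutation p = 0.0319, adjusted 0.0685, and rho = 0.650, permutation p = 0.0246, adjusted 0.0738), which missed the threshold. Within the 6 libraries high in Lcn2 r was 0.939, and within the 6 low in it 0.803. The endothelial list (13 genes, summed 144 to 448 CPM, with Esam, Cldn5 and Slco1a4 highest on average) gave r = 0.724 over 12 libraries. Its permutation p was 0.00742 and adjusted p 0.0197, but rho was 0.580, with a permutation p of 0.0515 and an adjusted p of 0.129. It gave r = 0.741 without the 2 farthest libraries, and 0.872 and 0.618 within the sets of 6.

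The astrocyte list moved the other way in part. Its 14 genes summed to 9018 and 8611 CPM in replicates 2 and 3 of 1X PBS and 12341 in 1X cytokine replicate 1, and to 22124 to 30970 in the other 9 libraries. Over 12 libraries r with Hbb-bs was -0.716 (permutation p = 0.0079, adjusted 0.0197), and rho was -0.483 (permutation p = 0.116, adjusted 0.193). This relation did not hold in both sets: r was -0.904 in the 6 libraries high in Lcn2 and 0.337 in the 6 low in it. The other 7 lists tested gave r between 0.135 and 0.574, and none passed the adjusted threshold. In the 6 libraries high in Lcn2, r was also high for oligodendrocyte (0.824), choroid plexus (0.799), ependymal (0.780) and monocyte and macrophage genes (0.723). It was low there for microglia (0.299), mural and fibroblast (0.0245) and neuron genes (-0.154). A high r in that set was thus not particular to blood and vessel genes. In the 6 low in Lcn2, r was -0.0492 for oligodendrocyte, -0.756 for choroid plexus and 0.398 for ependymal genes. Choroid plexus genes were related at 0.200 over all 12.

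**Figure D5:**
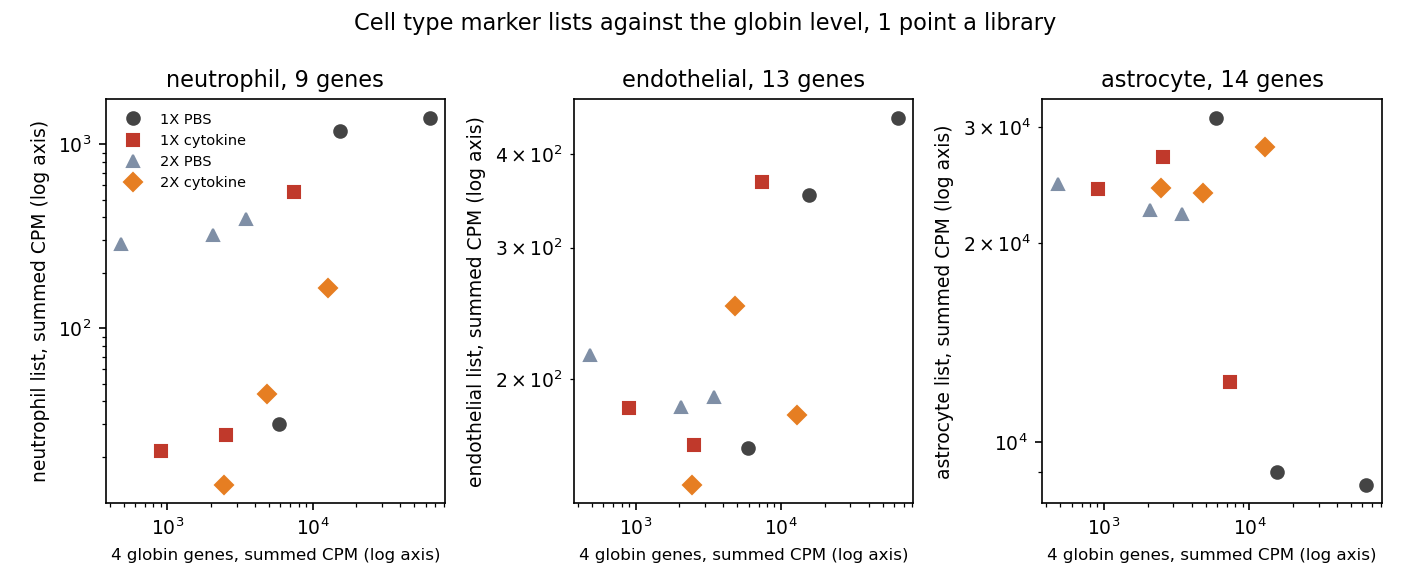
Summed CPM of the neutrophil, endothelial and astrocyte lists against the summed CPM of the 4 globin genes, 1 point a library and both axes logarithmic, with symbols for the labelled groups. Neutrophil sums of the libraries high in Lcn2 (288 to 1390 CPM) lie above those of the libraries low in it (14.1 to 166). Over all 12 libraries the relation of the neutrophil list with Hbb-bs missed the adjusted threshold. In the astrocyte panel, 3 libraries with 8611 to 12341 CPM lie apart from the other 9. The r values in the text, 0.939 and 0.803 in the 2 sets of libraries, are not of these sums. They relate Hbb-bs to the mean log2 level of the neutrophil list.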

How the data were processed

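RNA was sequenced by SMART-Seq2, a full-length method without molecular identifiers, per the labels' protocols. The authors' deposited files hold estimated counts and TPM per transcript from kallisto 0.46.1 with GRCm38 transcripts, per the labels' protocols. The deposited effective lengths were not used. Here estimated counts were summed per gene, rounded and tested with edgeR 4.0.16 (filterByExpr, TMM, quasi-likelihood F test, 1 coefficient a group, 12 libraries, Benjamini-Hochberg over 14490 genes). DESeq2 1.42.0 and limma 3.58.1 gave alternatives. Fits and permutations were tested on simulated data. Relations used log2(CPM + 0.5). Depth was 1878418 to 5521679 counts. No pair of libraries was identical, and the chi-square per gene between replicates was 3.42 to 53.6. Named genes were the members, measured genes of the erythroid, globin and heme lists, the leading genes of other lists, the 12 genes most like the members, and Lcn2 and Gfap; genes named for a single library were chosen after their values were seen. Members and lists were chosen with earlier results of these data known. Some members of these lists are not reported here by name. Left out were 19 ATAC-seq samples, which measure no transcripts. No batch was labelled.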

Additional observations from a re-analysis of the deposited data

How the results depend on the processing

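Counts of the 5 genes past the threshold stayed at 0 in all 5 tests with DESeq2, RLE factors, limma on log2(TPM + 1) or log2(TPM + 0.1), only the libraries compared, the member counts left out of library totals, or summed pairs. With no filter on low counts 5 passed in 1X cytokine against 1X PBS and 3 in 2X cytokine against 2X PBS. In that fit 5 passed in 2X PBS against 1X PBS and 5 in the difference between responses. The members' counts were unchanged in it, so these passes came with the low-count genes admitted. With replicate 1 left out of 1X PBS and of 1X cytokine together, 5 passed in 1X cytokine against 1X PBS, in 2X PBS against 1X PBS and in the difference. Leaving out 1 library at a time gave 0 to 1 in 1X cytokine against 1X PBS, 0 to 5 in 2X PBS against 1X PBS and 0 in the other 3 tests; the nonzero counts came from the fit that lacks 1X PBS replicate 1. In 2X cytokine against 1X cytokine, Alas2 ran from -0.13 (2X cytokine replicate 1 left out) to 1.73 (1X cytokine replicate 1 left out) on the log2 scale, against 0.76 with all libraries. In a fit lacking both 1X PBS replicate 3 and 2X cytokine replicate 1, chosen after seeing the data, it was -0.15 and Hbb-bs -0.0032. The cause was not tested. Replicate numbers did not pair libraries (same-numbered deviations correlated at -0.62 to 0.16), and the fit with a replicate block called 0 of 5 in each test, with a log2 fold change of -3.59 for Hbb-bs in 1X cytokine against 1X PBS. All genes called by DESeq2 numbered 2, 114, 8, 17 and 13 in the 5 tests, against 0, 5, 4, 0 and 0 by edgeR. Fitted on its own 6 libraries, 2X cytokine against 2X PBS called 1065 genes. Depth limits Alas2 most, at 28 counts in 2X PBS replicate 3.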
